A study of Saccharomyces cerevisiae with 16 samples.

Results

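The genes described here encode the small-subunit processome of the yeast Saccharomyces cerevisiae and the factors that carry its product on to the 40S ribosomal subunit. They were chosen by name, and a gene counted as measured where the platform annotation gave its symbol to a probe. All 47 genes were found with 1 probe each, among 6248 genes and unnamed probes on the array. For 46 of them the symbol matched directly, and DBP4 was found under its synonym HCA4.

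The small-subunit processome is a large nucleolar particle that forms on the ribosomal RNA precursor while RNA polymerase I is still making it. The UTP-A and UTP-B complexes bind the start of the precursor, the U3 small nucleolar ribonucleoprotein pairs with it, and helicases, methyltransferases and a GTPase then fold, modify and cleave it towards the small-subunit rRNA. Later factors stay with the precursor of the small subunit until it has matured in the cytoplasm. In yeast these genes belong to the ribosome biogenesis regulon, which is known for high transcription in growing cells and for repression in starved ones.

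All samples were the wine strain EC1118, a commercial diploid with no genetic change named in the labels, in a synthetic grape must that started with 100 mg/L nitrogen and 200 g/L glucose. The 4 batch samples were stationary-phase cells from fermentations at 28 °C with 164 g/L glucose left. The 4 samples without addition came from the third tank of a continuous fermentation run through 4 tanks, where cells rested with the nitrogen exhausted, at the same residual glucose. The 3 ammonium and the 3 valine samples came from that tank while ammonium or valine was fed into it, which added 100 mg/L nitrogen. The labels call the samples of a condition biological replicates, but those of the continuous culture were successive, 24 h apart, so p-values measure the spread between samplings, which may be technical, and condition and time of the run cannot be told apart. Temperature is labelled for batch alone, and residual glucose for batch and no addition alone.

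RNA from each sample was labelled with Cy3 and hybridised to oligonucleotide arrays, and the values are normalised log2 intensities, relative to the whole array. A change in the total amount of mRNA would not show in them, and small differences may change sign under another normalisation. Array medians lay between 9.09 and 9.10. The labels number 2 arrays of 8 blocks, called slides here, and each slide held all 4 conditions, though unevenly. Batch had 3 arrays on slide 1 and 1 on slide 2, no addition 1 and 3, ammonium 1 and 3, and valine 2 and 1. Ammonium sample 3 was measured on both slides and averaged. Its 2 arrays differed by a median of 0.08 over the 47 genes, and by at most 0.37, in SOF1. With 3 or 4 samples a condition, the number of arrays sets how precise these values can be. Calls rest on limma and on p-values adjusted by Benjamini and Hochberg across the 6248 features, with 0.05 as the threshold, and "rose", "fell", "higher" and "lower" are used of changes over that line.

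Levels of different genes come from different probes and cannot be set against each other. Group means ran from 7.51 for NOP14 without addition to 11.69 for SNU13 in batch. The median SD between samples was 0.16 in batch, 0.07 without addition, 0.10 with ammonium and 0.09 with valine. Within batch, sample 1 was the lowest of its group for 42 of the 47 genes and sample 3 the highest for 39. Ammonium sample 2 was the lowest of its group for 31 genes and no-addition sample 3 for 28. Batch had the highest group mean for 36 genes, ammonium for 7 and valine for 4. The no-addition mean was the lowest of the 4 for 38 genes, the ammonium mean for 5 and the valine mean for 4.

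**Figure D1:**
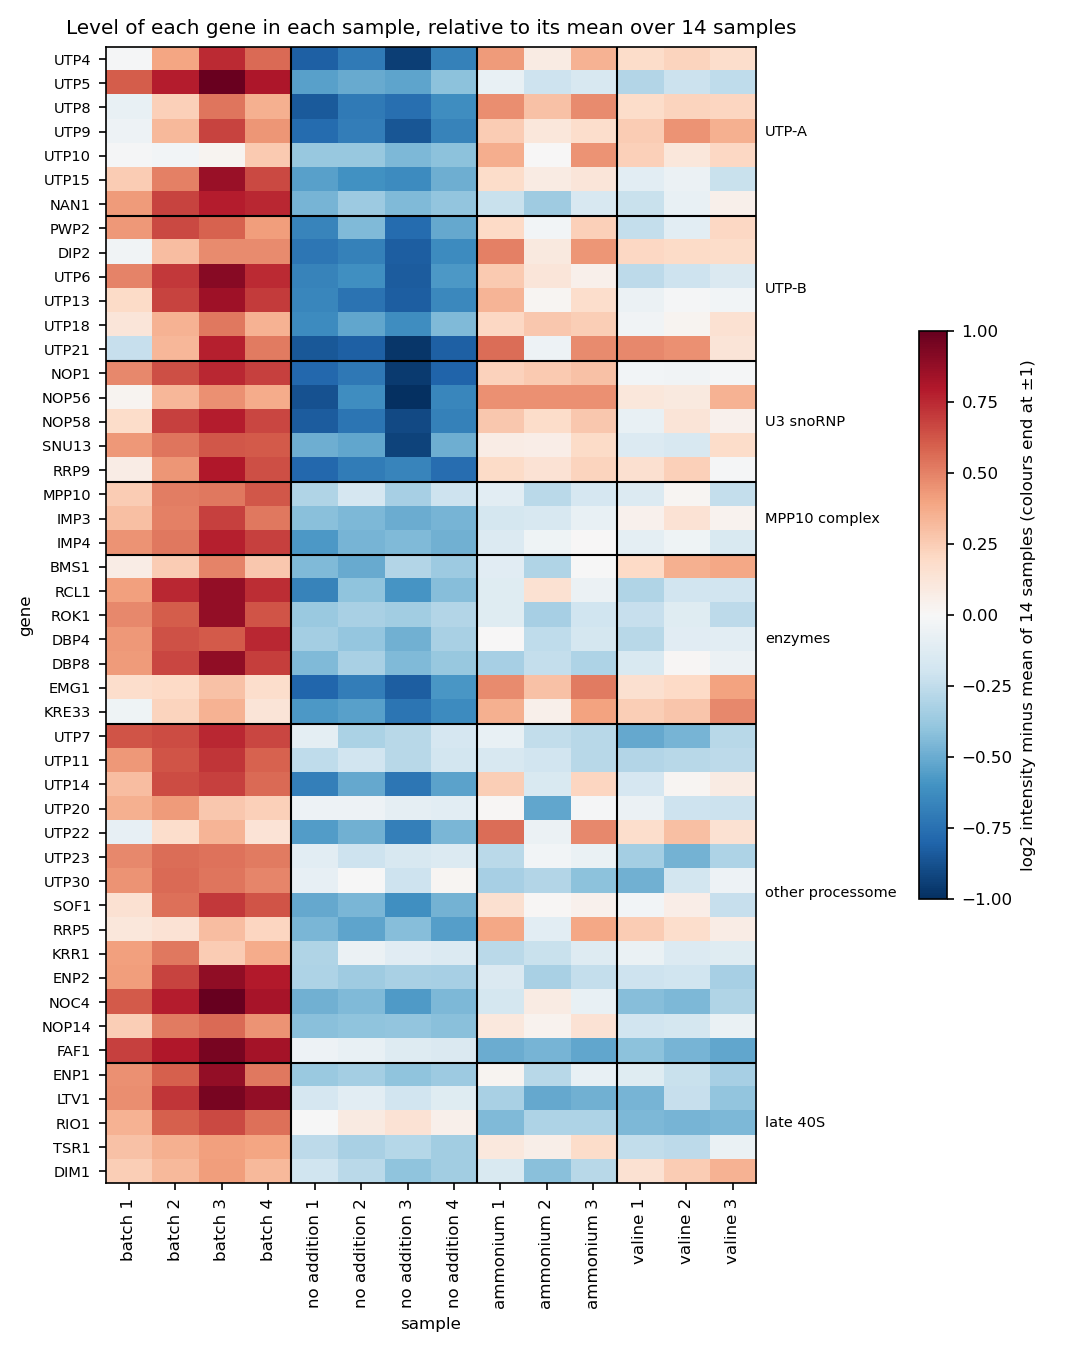
Each row is 1 of the 47 genes and each column 1 of the 14 samples, and the colour is the log2 intensity minus the gene's mean over these samples, with colours that end at ±1. The median over the genes lay between 0.30 and 0.69 in the batch columns, between -0.50 and -0.44 without addition, between -0.05 and 0.07 with ammonium and between -0.11 and -0.04 with valine.

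The first comparison set third-tank cells without addition against stationary-phase batch cells with the same glucose left. Both came from must that started with 100 mg/L nitrogen. The comparison was of continuous culture with batch, and anything else that went along with the culture mode cannot be told apart from it. Temperature was labelled for batch alone. All 47 genes were lower in the third tank, where 27.0% of all features were called lower and 30.3% higher. The median log2 fold change was -0.997, beside 0.01 over all features, and 22 genes were at least 2-fold lower. For each of the 47, the highest sample without addition lay below the lowest batch sample. How many of all features were separated in this way, or were at least 2-fold lower, was not counted. In these bulk samples, fewer cells with the transcript and less transcript per cell cannot be told apart. The median was -0.998 with slide as a block, -1.01 on slide 1 alone and -0.97 on slide 2 alone.

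The proteins of the U3 particle had the lowest median of the 7 role groups. NOP1 (YDL014W), the fibrillarin methyltransferase of box C/D particles, stood at 10.73, 10.89, 11 and 10.93 in batch samples 1 to 4 and at 9.46, 9.53, 9.29 and 9.45 without addition. The lowest batch value was thus over 1 log2 unit above the highest value without addition. Its log2 fold change of -1.46 ± 0.06 (SE, adjusted p = 2.71e-10) was the most negative of the 47. NOP56 and NOP58, the paired scaffold proteins of these particles, differed by -1.09 ± 0.10 and -1.37 ± 0.11. SNU13, which binds the kink turn of U3 and also serves the spliceosome, had -1.16 ± 0.10, and RRP9, a U3-specific protein, -1.22 ± 0.12. The median of these 5 genes was -1.22.

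UTP-B and UTP-A, the complexes that bind the leader of the precursor, came next. In UTP-B, a complex of WD-repeat proteins and UTP6, the median was -1.17. UTP6 stood at 10.31 ± 0.17 (SD, n = 4) in batch and 8.92 ± 0.11 (n = 4) without addition, a log2 fold change of -1.39 ± 0.08 (adjusted p = 9.28e-09). UTP13 differed by -1.32 ± 0.11, UTP21 by -1.22 ± 0.18, PWP2 by -1.13 ± 0.10, DIP2 by -1.02 ± 0.11 and UTP18 by -0.89 ± 0.08. In UTP-A, which is also known as t-UTP for its tie to rDNA transcription, the median was -1.10, and UTP5 had the lowest value of -1.29 ± 0.07. UTP10 (YJL109C), the largest protein of that complex, was an exception in size. It stood at 9.35, 9.33, 9.39 and 9.62 in batch and at 8.98, 8.98, 8.91 and 8.95 without addition. Batch sample 4 was the high one, the groups did not overlap, and the difference was -0.47 ± 0.09 (adjusted p = 3.53e-04).

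The MPP10 complex, which helps U3 pair with the precursor, had a median of -0.96. IMP4 differed by -1.10 ± 0.07, IMP3 by -0.96 ± 0.07 and MPP10 itself by -0.73 ± 0.08. Among the enzymes and their partners the median was -0.98. RCL1, a cyclase-like protein that BMS1 brings to the particle, was at -1.22 ± 0.09, and its partner BMS1, the GTPase, at -0.68 ± 0.09. The DEAD-box helicases DBP8 (-1.07 ± 0.08), DBP4 (-0.997 ± 0.07) and ROK1 (-0.98 ± 0.07) lay close together. EMG1, which methylates a modified uridine of the small-subunit rRNA, had -0.93 ± 0.07, and KRE33, an RNA acetyltransferase, -0.79 ± 0.09.

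The remaining processome factors and the late factors differed by less. The median was -0.83 over the 14 other processome genes and -0.66 over the 5 late ones. NOC4, which works as a pair with NOP14, was lowest of the former at -1.30 ± 0.08. UTP20 (YBL004W), a very large helical-repeat protein, was at the other end. It stood at 10.12, 10.19, 10.04 and 10.01 in batch and at 9.72, 9.72, 9.68 and 9.66 without addition. These groups came close but did not overlap, and the log2 fold change was -0.39 ± 0.09 (adjusted p = 0.00242). In the late group, ENP1, needed for export of the precursor, had -0.98 ± 0.09 and LTV1, an export factor, -0.90 ± 0.09. RIO1, an atypical protein kinase of the last steps, had -0.47 ± 0.06. None of the late genes reached a 2-fold difference.

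The next pair of comparisons set the third tank with ammonium or valine against the same tank without addition. With ammonium 32 of the 47 genes rose and 4 fell, where 32.1% of all features were called higher and 35.5% lower. With valine 32 rose and 4 fell as well, where 32.3% of all features were called higher and 35.6% lower. The median log2 fold change was 0.51 with ammonium and 0.45 with valine, beside -0.02 and -0.01 over all features. Both comparisons use the same no-addition samples, so they are not independent of each other. Of the genes, 29 rose with both supplements, 2 fell with both and 6 were called with neither. Such joint calls were not counted over all features. No gene was called in opposite directions.

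The calls were counted by the place of each gene in the particle. All 6 UTP-B genes and all 5 U3 proteins rose with either supplement. In UTP-A 6 of 7 genes rose with ammonium and 7 of 7 with valine. Of the 14 other processome genes 6 rose and 2 fell with ammonium, and 5 rose and 3 fell with valine. In the late group of 5 genes 2 rose and 2 fell with ammonium, and 1 rose and 1 fell with valine. Over all features 32.1% were called higher with ammonium and 32.3% with valine, and 35.5% and 35.6% lower. Of the other processome genes 42.9% and 35.7% were called higher, not far from those shares, and 14.3% and 21.4% lower. The late group is too small for its counts to be told apart from those shares. No group was tested against them. The medians, first with ammonium and then with valine, were 1.03 and 0.82 for the U3 proteins, 0.86 and 0.64 for UTP-B, 0.70 and 0.59 for UTP-A. They were 0.32 and 0.39 for the MPP10 complex, 0.27 and 0.33 for the enzymes, 0.07 and 0.07 for the other processome genes, and 0.02 and 0.11 for the late factors. These differences between groups of genes were not tested.

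**Figure D2:**
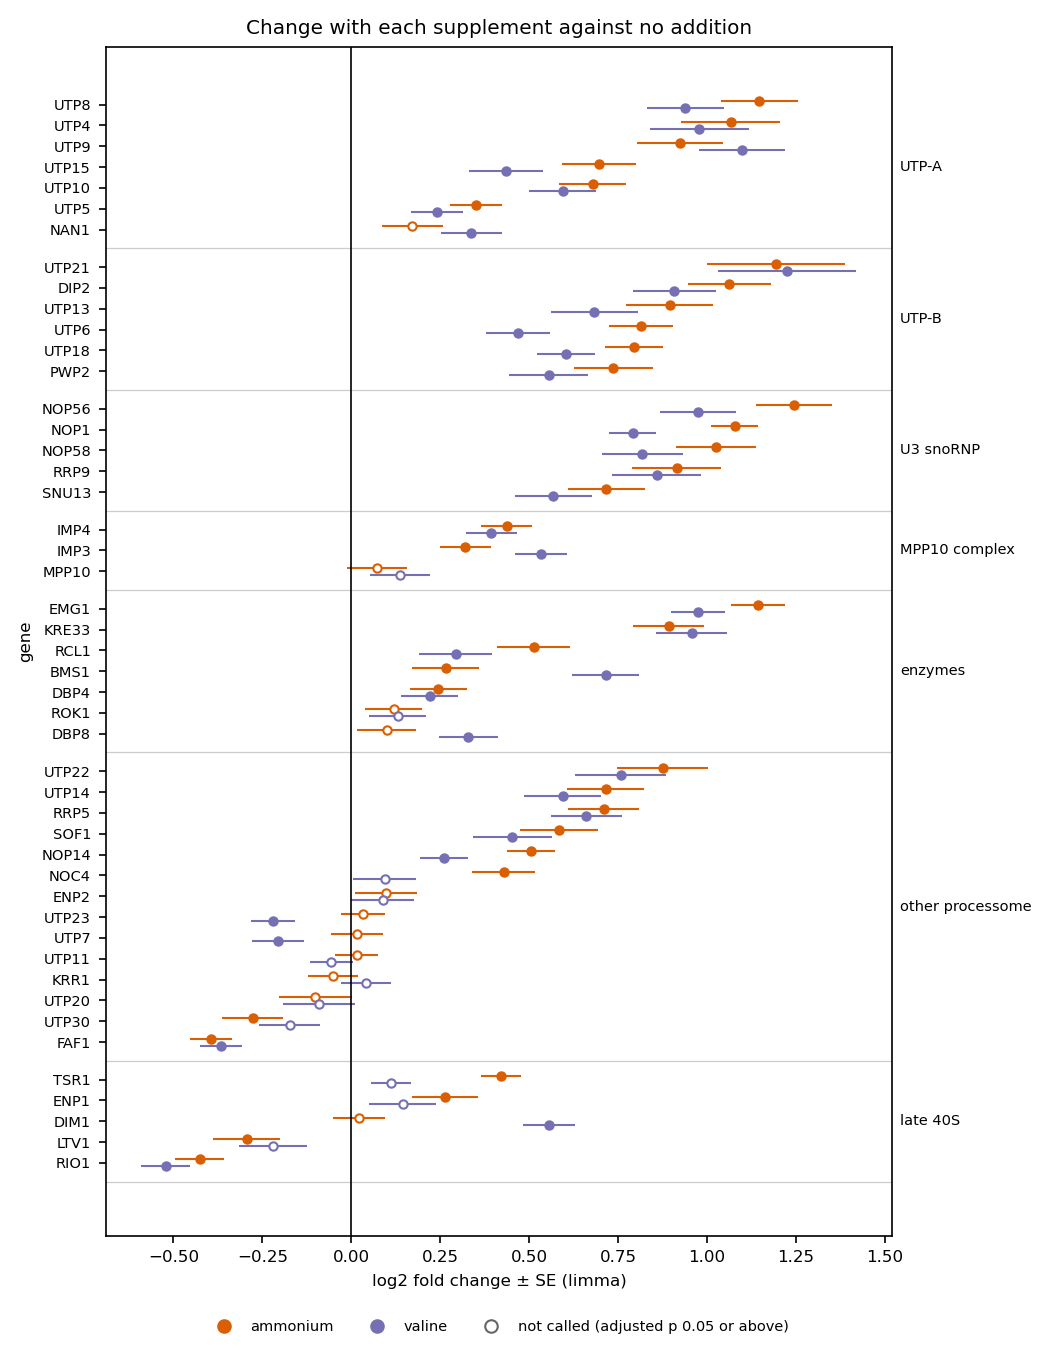
Points are limma log2 fold changes of each gene against no addition, with bars of 1 SE, for ammonium and for valine, and open points were not called. The U3, UTP-B and UTP-A genes lie to the right of 0 for both supplements, while FAF1 and RIO1 lie to the left of it and were called for both. LTV1, UTP30 and UTP20 also lie to the left for both, but none of them was called with both.

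Among the U3 proteins the largest rise was that of NOP56, the scaffold protein named above. NOP56 (YLR197W) stood at 10.05, 10.30, 9.92 and 10.27 without addition, at 11.38 in each of the 3 ammonium samples and at 11.03, 11.02 and 11.27 with valine. Every supplemented sample lay above every sample without addition. The log2 fold change was 1.24 ± 0.11 with ammonium (adjusted p = 1.11e-07), the largest of the 47, and 0.97 ± 0.11 with valine (adjusted p = 1.55e-06). NOP1 was measured at 10.48, 10.51 and 10.54 with ammonium and at 10.22, 10.21 and 10.24 with valine. Its spread within each condition was small, and it rose by 1.08 ± 0.07 (adjusted p = 3.16e-09) and 0.79 ± 0.07 (adjusted p = 8.43e-08). NOP58 rose by 1.02 ± 0.11 and 0.82 ± 0.11, RRP9 by 0.92 ± 0.13 and 0.86 ± 0.13, and SNU13 by 0.72 ± 0.11 and 0.57 ± 0.11. No-addition sample 3 was the low one in SNU13, at 10.21 beside 10.62 to 10.65 in the other 3 samples.

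In UTP-B the rise was largest for UTP21 (YLR409C), a WD-repeat subunit. It stood at 7.89, 7.92, 7.77 and 7.92 without addition, at 9.30, 8.69 and 9.21 with ammonium and at 9.22, 9.20 and 8.87 with valine. Ammonium sample 2 and valine sample 3 were the low ones of their groups, and both still lay above every sample without addition. UTP21 rose by 1.19 ± 0.19 (adjusted p = 7.02e-05) and 1.23 ± 0.19 (adjusted p = 5.55e-05). DIP2 rose by 1.06 ± 0.12 with ammonium and 0.91 ± 0.12 with valine, UTP18 by 0.79 ± 0.08 and 0.60 ± 0.08, and PWP2 by 0.74 ± 0.11 and 0.56 ± 0.11. UTP13 rose by 0.89 ± 0.12 and 0.68 ± 0.12, and UTP6 by 0.81 ± 0.09 and 0.47 ± 0.09.

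UTP-A held genes with a large and genes with a small rise. UTP8 stood at 7.95, 8.09, 8.04 and 8.17 without addition, at 9.26, 9.09 and 9.27 with ammonium and at 8.98, 9.02 and 9.01 with valine. The samples without addition lay well below all supplemented ones, and UTP8, which also has a part in tRNA export, rose by 1.15 ± 0.11 (adjusted p = 2.83e-07) and 0.94 ± 0.11 (adjusted p = 2.42e-06). UTP9 rose by 0.92 ± 0.12 and 1.10 ± 0.12 and UTP4 by 1.07 ± 0.14 and 0.98 ± 0.14. UTP15 rose by 0.70 ± 0.10 and 0.43 ± 0.10, and UTP5 by 0.35 ± 0.07 and 0.24 ± 0.07. NAN1, also called UTP17, was at 8.91 to 9.01 without addition, at 9.15, 9.02 and 9.21 with ammonium and at 9.15, 9.30 and 9.42 with valine. It was not called with ammonium (0.17, 95% confidence interval -0.01 to 0.35, adjusted p = 0.0922) and rose by 0.34 ± 0.09 with valine (adjusted p = 0.00284). The ammonium value was called without batch sample 1 (0.17, adjusted p = 0.0313) and when the 2 groups were fitted alone (adjusted p = 0.0217).

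IMP3 and IMP4 rose, and MPP10, the protein that gives their complex its name, was not called. MPP10 stood at 7.98, 8.11, 7.95 and 8.07 without addition, at 8.17, 8.01 and 8.11 with ammonium and at 8.14, 8.30 and 8.04 with valine. The 3 groups overlapped. The log2 fold change was 0.07 with ammonium (95% confidence interval -0.11 to 0.25) and 0.14 with valine (-0.04 to 0.32). IMP3 rose by 0.32 ± 0.07 and 0.53 ± 0.07, and IMP4 by 0.44 ± 0.07 and 0.39 ± 0.07.

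Among the enzymes, the rRNA-modifying proteins had the largest rises. EMG1 (YLR186W) stood at 8.86, 8.96, 8.83 and 9.07 without addition, at 10.12, 9.94 and 10.17 with ammonium and at 9.81, 9.85 and 10.05 with valine. No sample without addition came near the supplemented ones. EMG1 rose by 1.14 ± 0.08 (adjusted p = 7.07e-09) and 0.97 ± 0.08 (adjusted p = 4.25e-08), and KRE33 by 0.89 ± 0.10 and 0.96 ± 0.10. The helicases changed by less: DBP4 rose by 0.24 ± 0.08 and 0.22 ± 0.08, DBP8 was called with valine only (0.10, 95% confidence interval -0.08 to 0.28 with ammonium, and 0.33 ± 0.08 with valine), and ROK1 was called with neither. For ROK1 the values were 0.12 (-0.05 to 0.29) and 0.13 (-0.04 to 0.30). The ammonium call of DBP4 was lost without ammonium sample 1 (0.17, adjusted p = 0.0924) and its valine call without no-addition sample 3 or valine sample 2 or 3 (0.19 to 0.20, adjusted p = 0.0696 to 0.0847). RCL1 rose by 0.51 ± 0.10 and 0.29 ± 0.10, the latter not called without no-addition sample 1 or valine sample 2 or 3 (0.24 to 0.27, adjusted p = 0.0568 to 0.0611).

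The other processome factors held genes that rose, genes that fell and genes that were not called. UTP22, a partner of RRP7 in a complex tied to ribosomal protein gene control, stood at 8.80, 8.88, 8.68 and 8.90 without addition, at 9.92, 9.30 and 9.84 with ammonium and at 9.54, 9.66 and 9.51 with valine. All supplemented samples were above those without addition, with ammonium sample 2 the lowest of them. It rose by 0.88 ± 0.13 (adjusted p = 2.70e-05) and 0.76 ± 0.13 (adjusted p = 1.07e-04). UTP14, which activates a helicase of the particle, rose by 0.72 ± 0.11 and 0.59 ± 0.11. RRP5, an RNA-binding protein that serves both subunits, rose by 0.71 ± 0.10 and 0.66 ± 0.10, and SOF1, a WD-repeat protein, by 0.58 ± 0.11 and 0.45 ± 0.11. NOP14 rose by 0.51 ± 0.07 and 0.26 ± 0.07, while its partner NOC4 rose with ammonium (0.43 ± 0.09) and was at 0.09 with valine (95% confidence interval -0.10 to 0.28).

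UTP11, UTP20, KRR1 and ENP2 joined MPP10 and ROK1 as the 6 genes that were called with neither supplement. UTP20 was at 9.78, 9.25 and 9.76 with ammonium and at 9.71, 9.56 and 9.55 with valine. Ammonium sample 2 was well below the other ammonium samples, and both supplemented groups overlapped the samples without addition. Its log2 fold change was -0.10 (95% confidence interval -0.32 to 0.12) with ammonium and -0.09 (-0.31 to 0.13) with valine. KRR1, a KH-domain RNA-binding protein, was at -0.05 (-0.20 to 0.10) and 0.04 (-0.11 to 0.19). UTP11 was at 0.01 (-0.11 to 0.14) and -0.06 (-0.18 to 0.07), and ENP2, a WD-repeat protein, at 0.10 (-0.09 to 0.29) and 0.09 (-0.10 to 0.28).

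FAF1 and RIO1, which were lower without addition than in batch, were lower still with both supplements. FAF1 (YIL019W), a factor that binds KRR1, stood at 10.15, 10.27, 10.42 and 10.30 in batch, at 9.42, 9.39, 9.34 and 9.32 without addition, at 8.97, 9.0 and 8.95 with ammonium and at 9.06, 9.0 and 8.95 with valine. The values formed 3 separate levels, with both supplements at the lowest. It fell by 0.39 ± 0.06 with ammonium (adjusted p = 2.98e-05) and by 0.37 ± 0.06 with valine (adjusted p = 6.04e-05). RIO1 (YOR119C) went from 9.45, 9.54, 9.60 and 9.50 without addition to 9.01, 9.14 and 9.14 with ammonium and 9.0, 8.99 and 9.0 with valine. No supplemented sample reached the lowest sample without addition. It fell by 0.43 ± 0.07 (adjusted p = 6.59e-05) and by 0.52 ± 0.07 (adjusted p = 9.42e-06).

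A further 4 genes fell with 1 supplement and were not called with the other. LTV1 stood at 8.74, 8.80, 8.71 and 8.78 without addition, at 8.58, 8.39 and 8.42 with ammonium and at 8.44, 8.67 and 8.51 with valine. Neither supplemented group overlapped the samples without addition. It fell by 0.29 ± 0.10 with ammonium (adjusted p = 0.0131), a call lost without ammonium sample 2 (-0.26, adjusted p = 0.05), and had -0.22 with valine (95% confidence interval -0.42 to -0.02, adjusted p = 0.0532). The valine value was called without batch sample 1 (adjusted p = 0.011), batch sample 3 (0.0364) or valine sample 2 (-0.28, adjusted p = 0.031). UTP30, a non-essential protein with a ribosomal protein fold, fell with ammonium by 0.28 ± 0.09 (adjusted p = 0.00974) and was at -0.17 with valine (95% confidence interval -0.35 to 0.01). Without no-addition sample 3 or valine sample 3 its valine value was called (-0.22 and -0.26, adjusted p = 0.0428 and 0.0128). UTP23, which helps release the snR30 guide RNA, and UTP7, a WD-repeat protein, fell with valine by 0.22 ± 0.06 (adjusted p = 0.00567) and by 0.21 ± 0.07 (adjusted p = 0.0209). The UTP7 call was lost without no-addition sample 1 or 4 or valine sample 1 or 2 (-0.16 to -0.19, adjusted p = 0.0512 to 0.102). With ammonium UTP23 was at 0.03 (-0.10 to 0.17) and UTP7 at 0.02 (-0.14 to 0.17).

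The other late factors rose with 1 supplement each. TSR1, which resembles a GTPase and caps the immature subunit, rose with ammonium by 0.42 ± 0.06 and was at 0.11 with valine (95% confidence interval -0.01 to 0.23). ENP1 rose with ammonium by 0.26 ± 0.09 (adjusted p = 0.022), a call lost without ammonium sample 1 (0.19, adjusted p = 0.117) or 3 (0.24, adjusted p = 0.0691), and was at 0.14 with valine (-0.06 to 0.34). DIM1, the dimethyladenosine transferase of the small-subunit rRNA, rose with valine by 0.56 ± 0.07 (adjusted p = 7.57e-06) and was at 0.02 with ammonium (-0.13 to 0.18).

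With slide as a block 36 genes were called with each supplement, and the medians were 0.50 with ammonium and 0.43 with valine. Slide 1 alone left 1 sample without addition, 1 with ammonium and 2 with valine, so only the medians are given here. On slide 2 alone 32 rose and 4 fell with ammonium, where 2018 of all features were called higher and 2206 lower. Slide 2 held 1 valine sample, so for valine only the median is given. The medians within a slide were 0.64 and 0.50 for ammonium and 0.44 and 0.45 for valine.

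**Figure D3:**
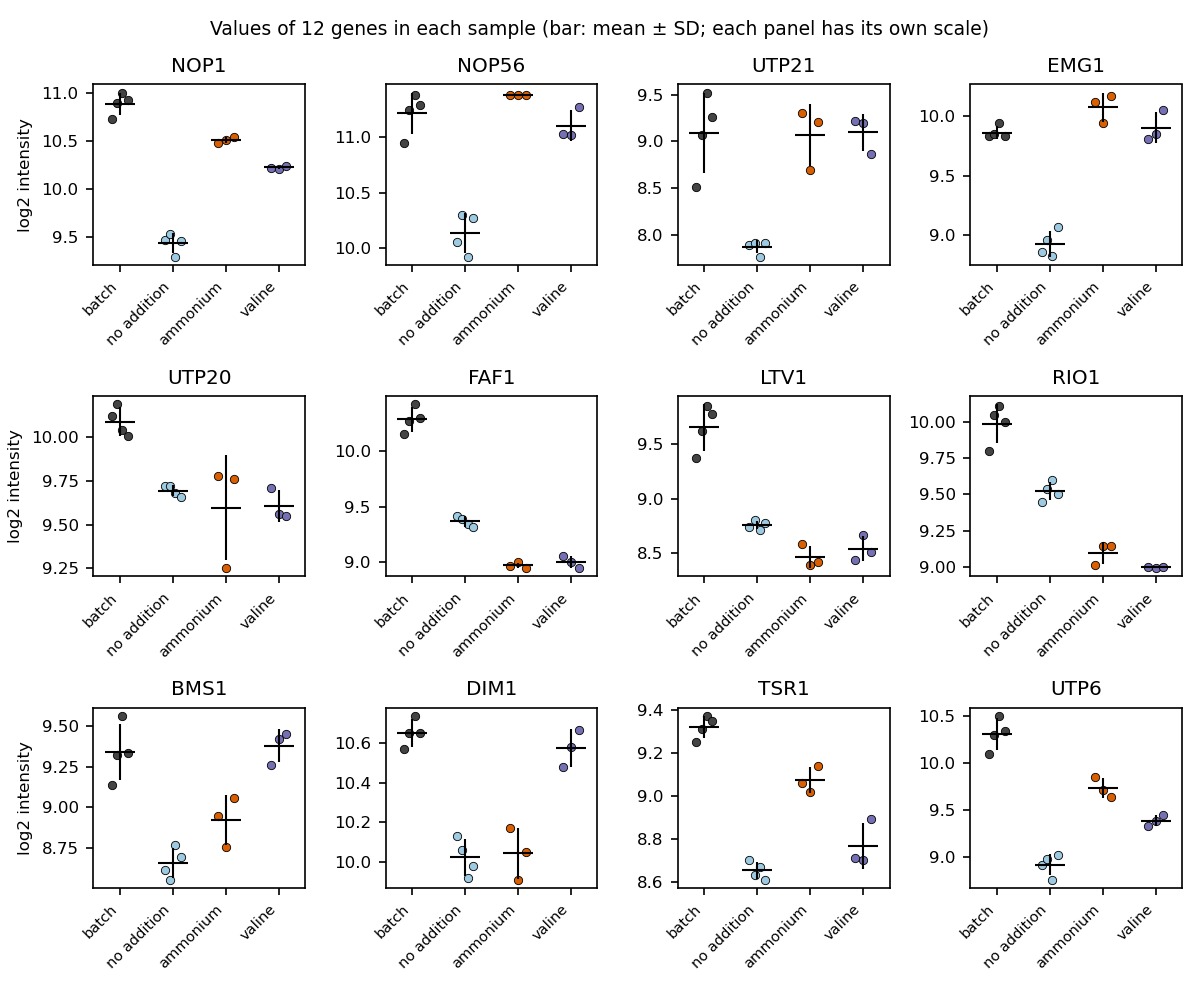
Points are the log2 intensity of 12 of the genes in each of the 14 samples, with the mean and SD of each condition, and each panel has its own scale. NOP1 stood between 9.29 and 9.53 without addition and between 10.21 and 10.54 with a supplement, while FAF1 and RIO1 were lowest with a supplement.

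The direct comparison of the supplements asked which of these genes differed between ammonium and valine. With ammonium 6 genes were higher than with valine and 2 were lower, where 7.59% of all features were called higher and 8.79% lower. Not called were 39 of the 47 genes and 5225 of the 6248 features. Calls were thus about as frequent among these genes as over all features. The median difference was 0.10, beside 0.01 over all features. The 8 genes were spread over 5 of the 7 role groups.

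DIM1 (YPL266W) and BMS1 (YPL217C) were lower with ammonium. DIM1 stood at 10.17, 9.91 and 10.05 with ammonium and at 10.48, 10.58 and 10.67 with valine, so that the groups did not overlap. Its level with ammonium overlapped the samples without addition (10.13, 10.06, 9.92 and 9.98), and its level with valine the batch samples (10.57, 10.65, 10.74 and 10.65). The log2 difference of ammonium from valine was -0.53 ± 0.08 (adjusted p = 4.01e-04). BMS1 stood at 8.95, 8.76 and 9.06 with ammonium and at 9.26, 9.42 and 9.45 with valine, a difference of -0.45 ± 0.10 (adjusted p = 0.00825). Against no addition BMS1 rose by 0.27 ± 0.09 with ammonium and by 0.72 ± 0.09 with valine. In BMS1 the lowest ammonium sample overlapped the samples without addition, and that call was lost without ammonium sample 1 or 3 or no-addition sample 2 (0.25, 0.20 and 0.23, adjusted p = 0.0611, 0.113 and 0.0587).

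TSR1, UTP6, NOC4, NOP1, UTP23 and NOP14 were higher with ammonium. TSR1 (YDL060W) stood at 9.06, 9.02 and 9.14 with ammonium and at 8.71, 8.70 and 8.89 with valine. Valine sample 3 was the nearest to the ammonium group and still below it, and the difference was 0.31 ± 0.06 (adjusted p = 0.0038). UTP6 differed by 0.35 ± 0.10 (adjusted p = 0.0249), NOC4 by 0.33 ± 0.10 (adjusted p = 0.029) and NOP1 by 0.29 ± 0.07 (adjusted p = 0.0137). UTP23 differed by 0.25 ± 0.07 (adjusted p = 0.0192) and NOP14 by 0.24 ± 0.07 (adjusted p = 0.0336).

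Most of these calls depended on single samples. Between 3 and 12 genes were called when 1 sample was left out, with 4 without ammonium sample 3, 5 without valine sample 1 and 3 without valine sample 2. The UTP6 call was lost without ammonium sample 1 or valine sample 1 or 2 (0.29 to 0.34, adjusted p = 0.0829 to 0.0912). The NOC4 call was lost without ammonium sample 2 or 3 or valine sample 1 or 2 (0.27 to 0.34, 0.0644 to 0.111), and that of NOP14 without ammonium sample 1 or 3 or valine sample 1 or 2 (0.22 to 0.24, 0.08 to 0.117). The UTP23 call was lost without ammonium sample 2 or 3 or valine sample 2 (0.20 to 0.23, 0.0712 to 0.101), and the NOP1 call without ammonium sample 3 (0.27, 0.0503) or valine sample 2 (0.28, 0.0543). DIM1, BMS1 and TSR1 kept theirs whichever sample was left out. With slide as a block 5 genes were called, without UTP6 (0.32, adjusted p = 0.0678), NOC4 (0.32, 0.0705) and NOP14 (0.21, 0.0949), and with array weights 25 were called. In limma 0 genes were called on slide 1 alone (4 at an unadjusted p under 0.05) and 1, DIM1, on slide 2 alone (10 unadjusted). Among the 39 genes that were not called are most of the largest responders to both supplements: UTP21 differed by -0.03 (95% confidence interval -0.48 to 0.41), NOP56 by 0.27 (0.02 to 0.52) and UTP4 by 0.09 (-0.23 to 0.41).

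The third tank with supplement was also set against batch, to ask how near the genes lay to the batch level. With ammonium 35 of the 47 genes were lower than in batch and 1 was higher, where 35.5% of all features were called lower and 33.2% higher. With valine 34 were lower and 0 higher in limma (0 at an unadjusted p under 0.05 as well), where 34.8% of all features were called lower and 31.6% higher. The median log2 fold change was -0.45 with ammonium and -0.59 with valine, beside -0.01 and -0.02 over all features. With slide as a block the medians were -0.49 and -0.59. They were -0.44 and -0.61 on slide 1 alone and -0.54 and -0.64 on slide 2 alone. Both comparisons share the batch samples.

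A set of 10 genes was called against batch with neither supplement, a count not made over all features. All 10 had risen with both. That follows in large part from the design, since all 47 were lower without addition and the comparisons share groups. The 10 genes were UTP4, UTP8, UTP9 and UTP10 of UTP-A, DIP2 and UTP21 of UTP-B, NOP56 of the U3 particle, KRE33, UTP22 and RRP5. RRP5 stood at 9.70, 9.73, 9.89 and 9.80 in batch, at 9.97, 9.48 and 9.97 with ammonium and at 9.84, 9.76 and 9.66 with valine. The 3 groups overlapped. Its difference from batch was 0.02 with ammonium (95% confidence interval -0.19 to 0.24) and -0.03 with valine (-0.24 to 0.19). UTP10 stood at 9.72, 9.36 and 9.81 with ammonium and at 9.60, 9.47 and 9.57 with valine, and differed from batch by 0.21 (0.01 to 0.41, adjusted p = 0.0596) and 0.12 (-0.08 to 0.33). For UTP21, whose batch samples ran from 8.51 to 9.52, the intervals were wide, at -0.44 to 0.39 and -0.41 to 0.42.

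Several of these 10 were called when 1 sample was left out, and UTP10 was called higher than batch with ammonium when slide was a block (0.26, adjusted p = 0.0475). Without ammonium sample 2 the ammonium level of UTP22 (0.38, adjusted p = 0.00338), UTP10 (0.35, adjusted p = 0.00113) and RRP5 (0.19, adjusted p = 0.0233) was higher than in batch, and UTP10 was also called without batch sample 4 (0.28, adjusted p = 0.0163). Without batch sample 1 UTP4 was lower than in batch with ammonium (-0.28, adjusted p = 0.0204) and with valine (-0.37, adjusted p = 0.00427). So was UTP9 with ammonium (-0.30, adjusted p = 0.00505) and DIP2 with valine (-0.22, adjusted p = 0.0423). Without batch sample 3 UTP8 was higher with ammonium (0.24, adjusted p = 0.0386).

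EMG1 was the gene that rose above batch with ammonium. It stood at 9.83, 9.85, 9.94 and 9.83 in batch, and ammonium sample 2 met the highest batch sample at 9.94 to 2 decimals. The difference was 0.21 ± 0.08 (adjusted p = 0.0222), a call lost without ammonium sample 1 (0.19, adjusted p = 0.074) or 3 (0.16, adjusted p = 0.109) and with slide as a block (0.17, adjusted p = 0.0893). With valine the value was 0.04 (95% confidence interval -0.12 to 0.20).

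A larger set of 33 genes was lower than in batch with both supplements, a count not made over all features. Among them 16 had risen with both, so that their level lay between no addition and batch. NOP1 was 0.38 ± 0.07 below batch with ammonium and 0.67 ± 0.07 below it with valine in absolute log2 units, after rises of 1.08 and 0.79. UTP5 was at -0.94 ± 0.07 and -1.05 ± 0.07, and IMP4 at -0.67 ± 0.07 and -0.71 ± 0.07. The RRP9 call with ammonium (-0.30 ± 0.13, adjusted p = 0.0437) was lost with slide as a block (-0.27, adjusted p = 0.12) and without any single 1 of 11 samples (-0.32 to -0.20, adjusted p = 0.0524 to 0.132). Its valine call (-0.36 ± 0.13, adjusted p = 0.0202) was lost without batch sample 3 or 4 or valine sample 3 (-0.25 to -0.31, adjusted p = 0.0573 to 0.09). The largest distances from batch were those of FAF1, at -1.31 ± 0.06 with ammonium (adjusted p = 7.50e-11) and -1.29 ± 0.06 with valine (adjusted p = 1.16e-10), followed with ammonium by LTV1 (-1.19 ± 0.10) and with valine by NOC4 (-1.21 ± 0.09) and LTV1 (-1.12 ± 0.10). All 3 genes of the MPP10 complex were below batch with both supplements, between -0.71 and -0.43.

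**Figure D4:**
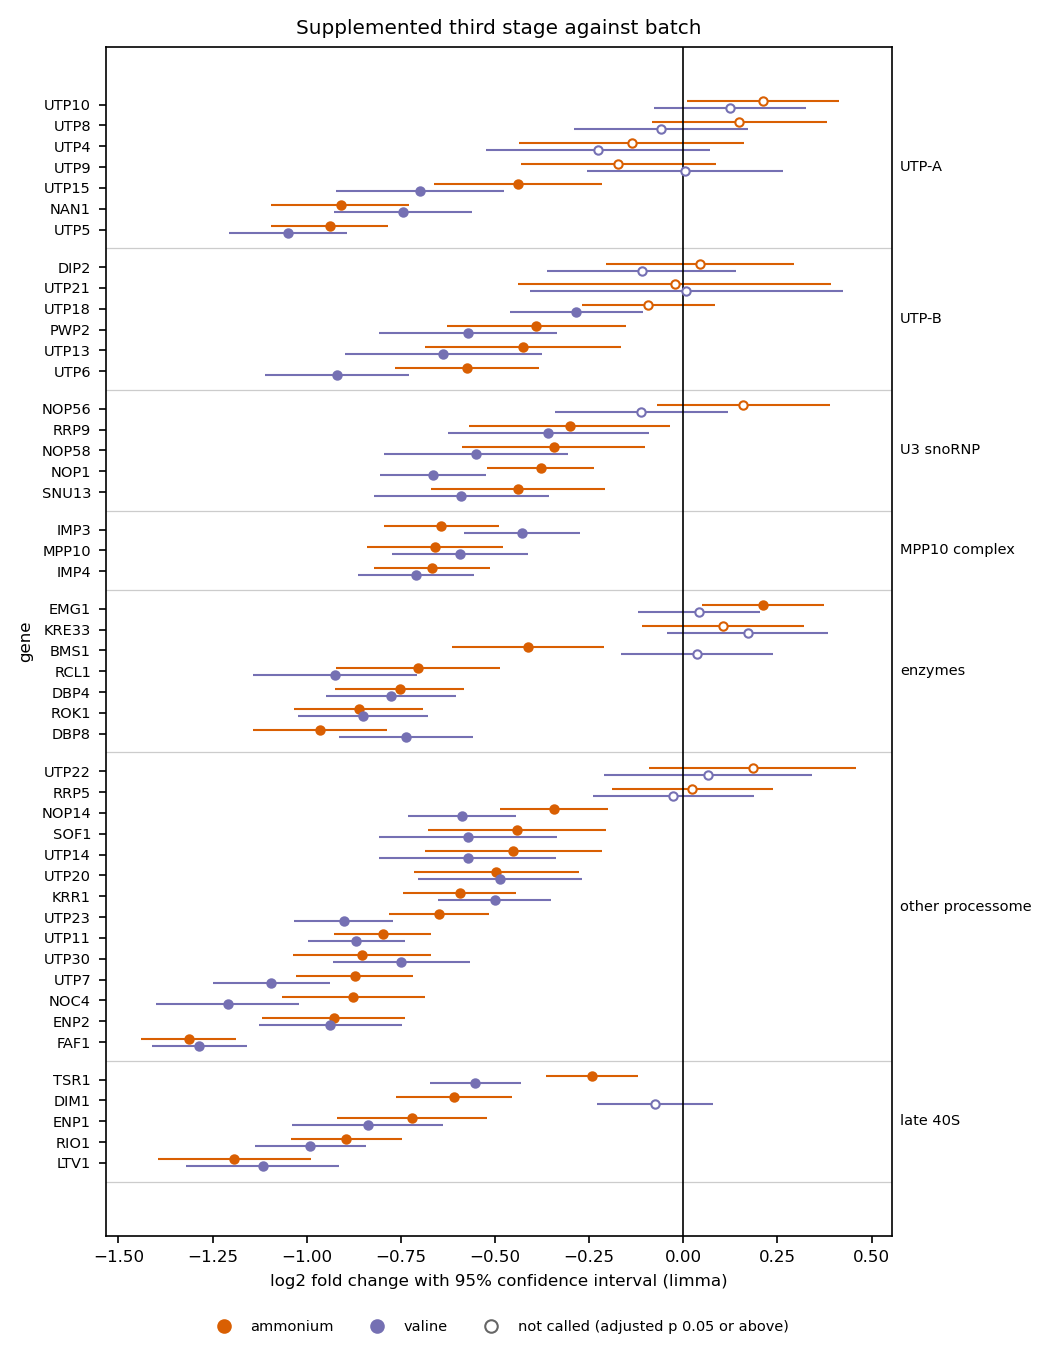
Points are limma log2 fold changes of each gene in the third tank with supplement against batch, with 95% confidence intervals, and open points were not called. UTP4, UTP8, UTP9, UTP10, DIP2, UTP21, NOP56, KRE33, UTP22 and RRP5 have intervals that reach or lie near 0 and were not called with either supplement, while FAF1 and LTV1 lie below -1 for both.

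Other genes of ribosome production give a frame for these values. They are 30 further factors of small-subunit assembly, 54 assembly factors of the large subunit and 55 genes of small-subunit ribosomal proteins. Without addition all 30 further factors and all 54 large-subunit factors were lower than in batch, with medians of -0.96 and -1.10, and so were 53 of the 55 ribosomal protein genes, with a median of -0.62. With ammonium 13 of the 30 further factors rose and 2 fell (median 0.17), 36 of the 54 large-subunit factors rose and 1 fell (0.38), and 54 of the 55 ribosomal protein genes rose (1.16). With valine the counts were 12 and 2 (0.13), 34 and 2 (0.33), and 52 and 1 (0.97). The processome genes, at 0.51 and 0.45, thus lay above both groups of assembly factors and below the ribosomal proteins in median, a difference between lists that was not tested.

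Against batch the ribosomal protein genes parted from the assembly genes. With ammonium 43 of the 55 were higher than in batch and 0 lower, and with valine 31 were higher and 3 lower, with medians of 0.46 and 0.30. The further small-subunit factors had medians of -0.75 and -0.75 and the large-subunit factors of -0.71 and -0.76, with 29 and 27 of 30 and 49 and 50 of 54 lower. The processome genes lay on the same side as these factors, at -0.45 and -0.59. Over all features 33.2% were higher and 35.5% lower than in batch with ammonium, and 31.6% and 34.8% with valine.

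**Figure D5:**
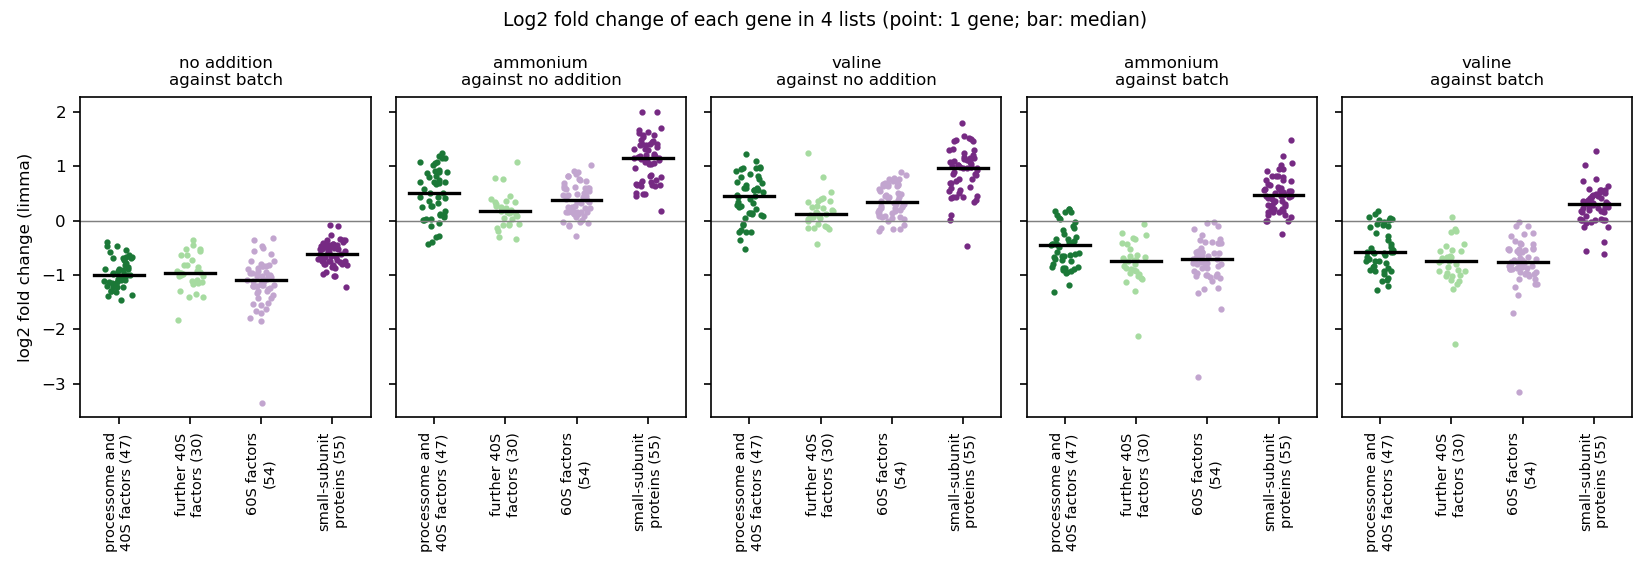
Each point is the log2 fold change of 1 gene, and bars are medians, for the 47 processome and late 40S genes, 30 further small-subunit factors, 54 large-subunit factors and 55 small-subunit ribosomal protein genes in 5 comparisons. The assembly genes lie mostly below 0 against batch in all panels, while the ribosomal protein genes cross it, with medians of -0.62 without addition, 0.46 with ammonium and 0.30 with valine.

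Genes for regulators of this regulon were lower in each comparison where they were called. They are SFP1, an activator of ribosome production, the repressors STB3, DOT6 and TOD6, and the kinase SCH9, which acts on the repressors. Without addition 4 of the 5 were lower than in batch, with ammonium 3 of 5 fell and with valine 5 of 5 fell. Over all features 27.0%, 35.5% and 35.6% were called lower in these comparisons. The counts of 5 genes were not tested against those shares. DOT6 was at 13.01 ± 0.17 in batch (SD, n = 4), 12.57 ± 0.04 without addition (n = 4), 12.10 ± 0.22 with ammonium (n = 3) and 11.78 ± 0.34 with valine (n = 3), and fell by 0.47 ± 0.14 and by 0.80 ± 0.14 with the supplements. SFP1 was not called with ammonium (-0.10, 95% confidence interval -0.27 to 0.07) and fell by 0.27 ± 0.08 with valine. Their part in the values of the processome genes was not tested.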

How the data were processed

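The submitters deposited 1 table of log2 intensities per probe, for 16 arrays of 15 samples. R 2.13.1 and limma are the tools listed, per the submitters' processing notes. How arrays were normalised and background-corrected, and which probes were detected, is not given in the sources used here. That the scale is log2 was judged from the numbers: array medians lay between 9.09 and 9.10, with a lowest value of 5.50 and a highest of 15.96. Array intensities carry no read depth.

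Of 6271 probes, 5220 had 1 gene symbol, 1051 none and 0 several. Of these symbols 5167 were current, 51 were updated and 2 were unmatched. Probes of a gene were averaged, which gave 6248 features. The 2 arrays of ammonium sample 3 were averaged. A sample whose labels name both ammonium and valine was given no group and entered no comparison.

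The 14 samples were fitted at once with limma 3.58.1 (lmFit, eBayes) in R 4.3.3, with 6 comparisons and Benjamini-Hochberg adjustment over all features at 0.05. Intervals are 95% intervals from that fit. Tables and plots were made in Python 3.11.15 with matplotlib 3.10.9, and the fit was tested on simulated data.

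The genes and the lists beside them were chosen with earlier results of these data known, and counts of them are descriptions. In the list of further small-subunit factors 30 of 32 genes were measured. Genes named in the text were a fixed panel, the 3 highest and 3 lowest of each comparison, genes called against the majority, genes called or not called where these were 5 or fewer, and genes called in opposite directions. Others were named to complete a complex. Alternatives were slide as a block or alone, replicate number as a block, 2-group fits, array weights, a filter on low values, probes without averaging, renewed quantile normalisation or centring of arrays, a trended and robust prior, other handling of ammonium sample 3, centring on the median of all features, and leaving out single samples. No genome was used, so promoter motifs were not counted and no positions are given.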

Additional observations from a re-analysis of the deposited data

Results flagged for a closer look

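In no-addition sample 3, SNU13 was at 10.21, against 10.62 to 10.65 in the other 3 samples, a gap of 0.941 of the group's range. In the same sample UTP21 was at 7.77, against 7.89 to 7.92, a gap of 0.83. Both stood further from the nearest sample than Dixon's criterion allows for groups of 4. Of 94 groups of 4 samples, 2 were marked in this way, where chance alone would mark 4.7. SNU13 and UTP21 were called against no addition with both supplements, and no comparison of SNU13 or UTP21 with no addition lost its call when that sample was left out.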

How the results depend on the processing

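Against 29 alternatives no called gene changed sign in any comparison. Of the called genes, 44 of 47 kept their call throughout without addition against batch. The other 3 lost it only in fits of 1 slide alone, which held 1 sample of a group. They were UTP20 (-0.34 on slide 1 and -0.50 on slide 2), UTP10 (-0.39 on slide 2) and UTP21 (-1.21 on slide 1). Against no addition 20 of 36 with ammonium and 22 of 36 with valine kept theirs, and between the supplements 0 of 8. Against batch 25 of 36 with ammonium and 27 of 34 with valine did. The counts moved by over 1.5 times only in fits of slide 1 alone (20 genes with ammonium and 23 with valine against no addition) and between ammonium and valine. There the 8 calls became 5 with slide as a block, 0 on slide 1 and 1 on slide 2 alone, 25 with array weights, whose estimation stopped before its tolerance was met, and 20 without the sample of each group furthest from the rest, an alternative chosen after seeing the data. Without those samples the other counts were 47, 37 and 38, and 41 and 37 against batch. The cause was not tested, except that fits of 1 slide hold fewer samples, where a lone sample is assumed to vary like the other groups.

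Leaving out single samples gave 47 to 47 calls without addition against batch, 33 to 37 with ammonium and 34 to 37 with valine against no addition, 3 to 12 between the supplements, and 34 to 39 and 33 to 36 against batch. The medians ranged from -1.06 to -0.91, 0.45 to 0.51, 0.40 to 0.47, 0.05 to 0.16, -0.56 to -0.41 and -0.67 to -0.55 in that order.

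Replicate numbers did not pair the samples: over 19 pairs the correlation of deviations ran from -0.574 to 0.309, and 4 exceeded 0.1. With the replicate block 47, 36, 36, 7, 36 and 34 genes were called. In that fit the calls of ENP1 with ammonium against no addition (0.25, adjusted p = 0.0582), UTP6 between the supplements (0.34, 0.0567) and RRP9 with ammonium against batch (-0.28, 0.08) were lost, and UTP10 (0.24, 0.0358) and NAN1 (0.19, 0.0492) were called with ammonium, against batch and no addition.

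Over all features, 474 were higher and 549 lower between ammonium and valine. These counts were 6 and 32 on slide 1 alone, 55 and 173 on slide 2 alone, 1286 and 1185 with array weights, 802 and 845 without the furthest samples, 300 and 397 with slide as a block, 302 and 388 in the fit of 2 groups and 300 and 408 with the replicate block. On slide 1 alone 826 were higher and 856 lower without addition against batch, in place of 1896 and 1686, and on slide 2 alone 1249 and 1138. On slide 1 alone 1214 and 1263 were called with ammonium and 1330 and 1419 with valine against no addition, in place of 2008 and 2216, and 2019 and 2223. Counts of promoter motifs were not run.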

Other observations

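The sample whose title names ammonium and whose treatment label names valine was on slide 1 and was compared with nothing. Its median deviation from the mean of the 14 grouped samples was -0.005 over the 47 genes. It read 10.71 for NOP1, 11.25 for NOP56 and 10.3 for EMG1. In genes that differed between the supplements it read 10.03 for DIM1, 8.96 for BMS1 and 9.25 for TSR1. It read 8.96 for FAF1, 9.06 for RIO1 and 9.5 for UTP20.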
